A study of Homo sapiens with 12 samples.

Results

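The genes analysed were 10 that encode chaperones of the endoplasmic reticulum (ER) or proteins of the unfolded protein response. They were HSPA5, HSP90B1, HYOU1, CALR, PDIA4, DNAJB9, DNAJC3, SDF2L1, HERPUD1 and XBP1, chosen by name among the 26364 genes of the count table. All 10 passed the filter on low counts, as did 13852 genes in all. The libraries came from HepG2, a cell line from a human liver cancer, at 0, 5, 10, 30 and 240 min after insulin, with 2 replicates at each time and no other genotype or agent that differed between times in the labels. The times come from the library titles, whereas the treatment text of every RNA library, those at 0 min included, gives 16 h without serum and then 3 nM insulin for 5 min, so the dose at each time could not be settled. The study's methods call the RNA-seq samples biologically independent and the experiment a single one, and the labels do not say how the replicates were grown, so p-values measure the spread between samples of 1 experiment. In addition, 1 ChIP-seq peak list of the insulin receptor (IR) in HepG2 was set against the same genes. The treatment text of that ChIP library also gives 3 nM insulin.

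Secreted and membrane proteins fold in the ER with the help of lumenal chaperones, lectins and disulfide isomerases. When unfolded proteins accumulate, the sensors IRE1, PERK and ATF6 start the unfolded protein response, in which spliced XBP1 and cleaved ATF6 raise transcription of chaperone and degradation genes. Hepatocytes secrete large amounts of plasma protein and carry a large ER, and insulin raises protein synthesis in them. The transcription factors of the response read short promoter elements. The ER stress response element (ERSE) joins a CCAAT box for NF-Y to a CCACG for ATF6 or XBP1, and ERSE-II holds the same parts closer together.

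ERSE was searched as CCAAT and CCACG with 9 bases between them, and ERSE-II as ATTGG and CCACG with 1 base between them, on both strands, from 250 bases before to 50 bases after each RefSeq start site. The letters of these elements do not overlap each other in the windows of the 10 genes. ERSE was found in 4 of the 10 genes (HSPA5, HSP90B1, CALR and XBP1), against 27 of 35116 windows over all genes (0.0769%). ERSE-II was found in 3 others (HYOU1, HERPUD1 and SDF2L1), against 19 windows in all (0.0541%). No match to these letters was found in the windows of DNAJB9, PDIA4 and DNAJC3. The counts for the 10 genes are of genes, which have 12 windows, beside windows over all genes. The 10 were chosen as genes of the response that reads these elements, so these shares are no independent test of enrichment. The promoters below are from RefSeq on GRCh38.p14, 5′ to 3′ on the strand of the gene, with ERSE or ERSE-II in capitals. The first 3 belong to the genes whose transcripts changed from 0 to 240 min, and the last 2 to the genes with an IR peak. They lie at chr9:125241294-125241593 on the minus strand for HSPA5, and on the plus strand at chr22:21642052-21642351 for SDF2L1, chr16:56931892-56932191 for HERPUD1, chr12:103930160-103930459 for HSP90B1 and chr19:12938359-12938658 for CALR.
HSPA5: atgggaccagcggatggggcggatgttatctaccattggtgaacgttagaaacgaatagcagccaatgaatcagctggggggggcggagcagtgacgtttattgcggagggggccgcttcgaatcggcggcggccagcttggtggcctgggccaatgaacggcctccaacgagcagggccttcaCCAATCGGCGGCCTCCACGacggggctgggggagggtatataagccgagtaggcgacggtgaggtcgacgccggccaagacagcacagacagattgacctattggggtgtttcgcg
SDF2L1: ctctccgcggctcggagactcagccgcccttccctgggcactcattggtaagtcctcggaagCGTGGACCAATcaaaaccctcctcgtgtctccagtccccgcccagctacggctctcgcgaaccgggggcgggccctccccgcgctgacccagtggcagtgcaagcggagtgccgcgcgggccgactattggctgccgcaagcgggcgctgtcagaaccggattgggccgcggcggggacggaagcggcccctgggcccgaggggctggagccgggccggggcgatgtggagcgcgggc
HERPUD1: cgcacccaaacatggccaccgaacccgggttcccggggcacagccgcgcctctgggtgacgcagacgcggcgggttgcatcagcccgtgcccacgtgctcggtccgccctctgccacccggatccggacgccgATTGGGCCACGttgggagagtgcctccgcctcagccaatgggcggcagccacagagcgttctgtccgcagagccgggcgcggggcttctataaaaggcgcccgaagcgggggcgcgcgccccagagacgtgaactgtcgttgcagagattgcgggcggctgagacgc
HSP90B1: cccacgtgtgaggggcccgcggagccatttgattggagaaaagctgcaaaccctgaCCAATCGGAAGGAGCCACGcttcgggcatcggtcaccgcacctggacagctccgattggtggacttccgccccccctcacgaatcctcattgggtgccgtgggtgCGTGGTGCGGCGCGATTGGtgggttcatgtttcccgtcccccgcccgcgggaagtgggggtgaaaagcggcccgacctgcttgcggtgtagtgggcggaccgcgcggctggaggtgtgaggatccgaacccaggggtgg
CALR: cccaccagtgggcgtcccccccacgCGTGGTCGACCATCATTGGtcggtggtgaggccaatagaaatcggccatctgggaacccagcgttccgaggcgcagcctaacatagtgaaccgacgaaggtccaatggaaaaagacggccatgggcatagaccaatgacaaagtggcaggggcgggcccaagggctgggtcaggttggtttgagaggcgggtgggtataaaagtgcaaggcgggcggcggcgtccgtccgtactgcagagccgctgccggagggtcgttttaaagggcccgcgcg

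Only exact letters were searched, so copies that differ from them were not counted or put in capitals. The ERSE found in HSPA5 read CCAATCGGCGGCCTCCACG and began 66 bases before the start site. HSP90B1 held 2, at 194 bases and, on the reverse strand, at 89 bases before the start. The ERSE of XBP1, CCAATCGCGGAGGGCCACG, began 52 bases before the upstream of its start sites. HYOU1 held the same ERSE-II letters at 2 places, 185 and 79 bases before the start, read CGTGGTCCAAT on the strand of the gene. A rising gene, a falling gene and a gene that did not pass the test (described next) were all found among those with ERSE-II.

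At 240 min the transcript of HSPA5, encoding the chaperone BiP, and that of SDF2L1, a cofactor of BiP, were higher than at 0 min, and that of HERPUD1, a membrane protein of ER-associated degradation, was lower. The other 7 genes did not pass the test. With edgeR's quasi-likelihood test and Benjamini-Hochberg adjustment over all 13852 genes, 2 of the 10 genes rose, beside 20.6% of all genes tested, and 1 fell, beside 20.4%. The counts of risers and fallers were thus no larger than over the whole table. The median log2 fold change of the 10 genes was 0.065, beside -0.003 over all genes tested. Scaling by the ERCC spike-ins moved the median of all genes by -0.117 on the log2 scale at 240 min, and under it none of the 3 genes passed (adjusted p = 0.781 for HSPA5, 0.25 for SDF2L1 and 0.0924 for HERPUD1, edgeR). The directions of these 3 were kept, whereas 6 of the 7 other genes turned from a positive to a negative value.

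**Figure D1:**
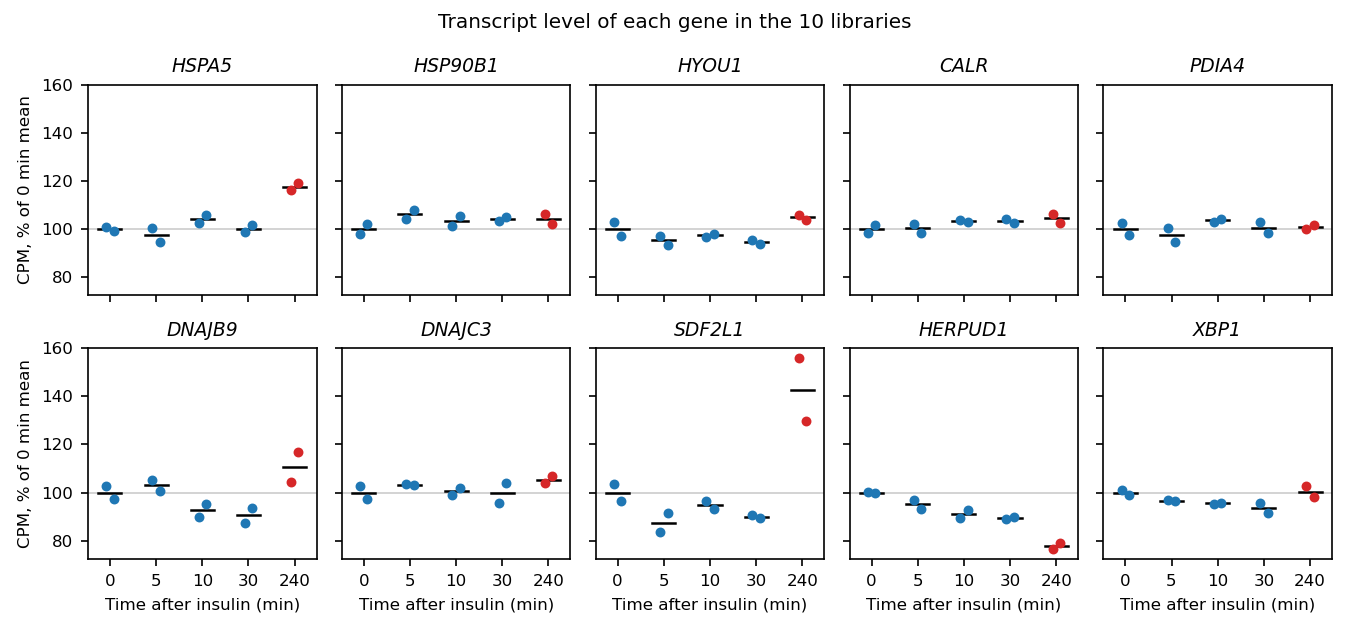
Transcript level of each gene in CPM (counts scaled to library size) as a percent of its mean at 0 min (vertical axis) by time after insulin in min (horizontal axis, not to scale). Each point is 1 library, each short line the mean of 2, and 240 min is in red. Both 240 min points of HSPA5 and SDF2L1 lie above all 8 others and both of HERPUD1 below all others. Those of HYOU1 and DNAJC3 also lie above all 8 others, by less, and neither gene passed the test against 0 min.

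HSPA5 (chr9:127997127-128003666, minus strand, hg19) binds unfolded chains in the ER lumen and holds the sensors of the response inactive. Its level, in CPM (counts scaled to library size with TMM factors, replicate 1 given first), was 956 with 938 at 0 min, 948 with 894 at 5 min, 968 with 1003 at 10 min, 933 with 961 at 30 min, and 1098 with 1127 at 240 min. The pair at 240 min stood above the other 8 libraries. The 10 min pair was next, above every library at 0, 5 and 30 min, but its difference from 0 min did not pass (log2 value 0.06, adjusted p = 0.976, edgeR). From 0 to 240 min it rose 1.18-fold, from 947 ± 12.6 to 1112 ± 20.7 CPM (SD, n = 2 each), or 0.23 ± 0.05 on the log2 scale (SE, edgeR's quasi-likelihood test, adjusted p = 0.000964).

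HSP90B1, the ER member of the HSP90 family known as GRP94, had between 1898 and 2091 CPM over the 10 libraries. Its highest library was 5 min replicate 2 and its lowest 0 min replicate 1. From 0 to 240 min the difference was 0.06 on the log2 scale, with a 95% interval from -0.05 to 0.17 (adjusted p = 0.375 by edgeR). A rise as large as the estimate for HSPA5 lies outside that interval, although the difference between the 2 genes was not tested. A related pseudogene, HSP90B2P, took counts equal to 0.287% to 0.366% of those of HSP90B1.

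HYOU1 is a large HSP70-like chaperone that acts as an exchange factor for BiP. It was at 356 with 335 CPM at 0 min, 336 with 323 at 5 min, 334 with 338 at 10 min, 330 with 324 at 30 min, and 365 with 359 at 240 min. The 240 min pair was above all others, but close to 0 min replicate 1. The difference from 0 min was 0.07 on the log2 scale with an interval from -0.03 to 0.17 (adjusted p = 0.271, edgeR).

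CALR, a calcium-binding lectin chaperone of glycoproteins, and PDIA4, a disulfide isomerase also called ERp72, varied little between libraries. CALR had between 1421 and 1537 CPM, with a coefficient of variation of 2.38% over the 10 libraries. Its change from 0 to 240 min was 0.06 on the log2 scale (interval -0.04 to 0.17). PDIA4 had between 523 and 577 CPM and a change of 0.01 (interval -0.09 to 0.12). The 0 and 240 min libraries of PDIA4 overlapped.

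Of the proteins with a J domain, which stimulate the ATPase of HSP70 chaperones, DNAJB9 (ERdj4) was measured at 30.3 with 28.8 CPM at 0 min, 31.1 with 29.8 at 5 min, 26.6 with 28.1 at 10 min, 25.8 with 27.7 at 30 min, and 30.8 with 34.5 at 240 min. Replicate 1 at 240 min was within the range of the 0 and 5 min libraries and replicate 2 was the highest of all. The change from 0 min was 0.15 ± 0.07 (SE) on the log2 scale and did not pass (adjusted p = 0.117, edgeR). DNAJC3 (p58IPK), which binds BiP, had between 164 and 183 CPM, and its change at 240 min was 0.08 with an interval from -0.03 to 0.18. Its 240 min pair, at 178.4 with 183.1 CPM, was just above the highest other library, 30 min replicate 2 at 178.1 CPM. DNAJB9 overlaps THAP5, and DNAJC3 an antisense transcript, on the opposite strand, and the reads were counted by strand. In counts not scaled to library size, THAP5 had 396 with 296 at 30 min and 533 with 380 at 240 min. The antisense transcript had 219 with 156 and 220 with 150. Their part in the values of DNAJB9 and DNAJC3 was not tested.

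SDF2L1 (chr22:21996542-21998588, plus strand, hg19) keeps BiP and its J-protein partners in a working cycle. Its level was 8.77 with 8.19 CPM at 0 min, 7.08 with 7.75 at 5 min, 8.18 with 7.92 at 10 min, 7.68 with 7.57 at 30 min, and 13.2 with 11.0 at 240 min. Both 240 min libraries exceeded the 8 others, and they lay further apart than the pair at any other time. The rise was 1.45-fold, or 0.53 ± 0.11 on the log2 scale (SE, adjusted p = 0.0006, edgeR's quasi-likelihood test), the largest among the 10 genes. It rested on 156 to 365 counts per library, the fewest of the 10, and was 0.38 without replicate 1 at 240 min and 0.65 without replicate 2.

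HERPUD1 (chr16:56966002-56977793, plus strand, hg19) helps to assemble the HRD1 complex that exports misfolded proteins for degradation. It was at 90.3 with 89.9 CPM at 0 min, 87.5 with 84.0 at 5 min, 80.5 with 83.5 at 10 min, 80.2 with 80.9 at 30 min, and 68.8 with 71.3 at 240 min. Every later library was below both at 0 min, and the 240 min pair was below all others. By the fitted fold it fell by 22.3% at 240 min (log2 value -0.36 ± 0.05 SE, adjusted p = 9.96e-06 by edgeR). At 5, 10 and 30 min the log2 fold changes were -0.07, -0.14 and -0.16, with adjusted p = 0.52, 0.735 and 0.299 in the same edgeR model, so these earlier values did not pass.

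XBP1 encodes the transcription factor that IRE1 activates by splicing its mRNA. Gene counts add both splice forms, so they carry no measure of splicing. Its level lay between 262 and 294 CPM in all libraries. The 0 and 240 min libraries overlapped, at 290 and 284 against 294 and 282 CPM, and the log2 fold change was 0.01 with an interval from -0.09 to 0.10.

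Within the first 30 min none of the 10 genes passed the test. The count was 0 at 5 min, where 0.0% of all genes were called, 0 at 10 min (background 0.137%), 0 at 30 min (0.332%) and 0 from 10 to 30 min (0.00722%). At an unadjusted p under 0.05 the counts were 0, 1, 1 and 0, and the gene at 10 and at 30 min was HERPUD1. Over all 13852 genes tested, 1976, 710, 1125 and 541 were under that unadjusted limit, so nothing is read from the single gene. After adjustment DESeq2 also called 0 of the 10 genes in each, as did each of the 22 alternatives. The 3 comparisons with 0 min share its libraries. Scaling by the spike-ins moved the median of all genes by -0.0834, -0.325 and -0.13 at 5, 10 and 30 min and by 0.196 from 10 to 30 min.

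**Figure D2:**
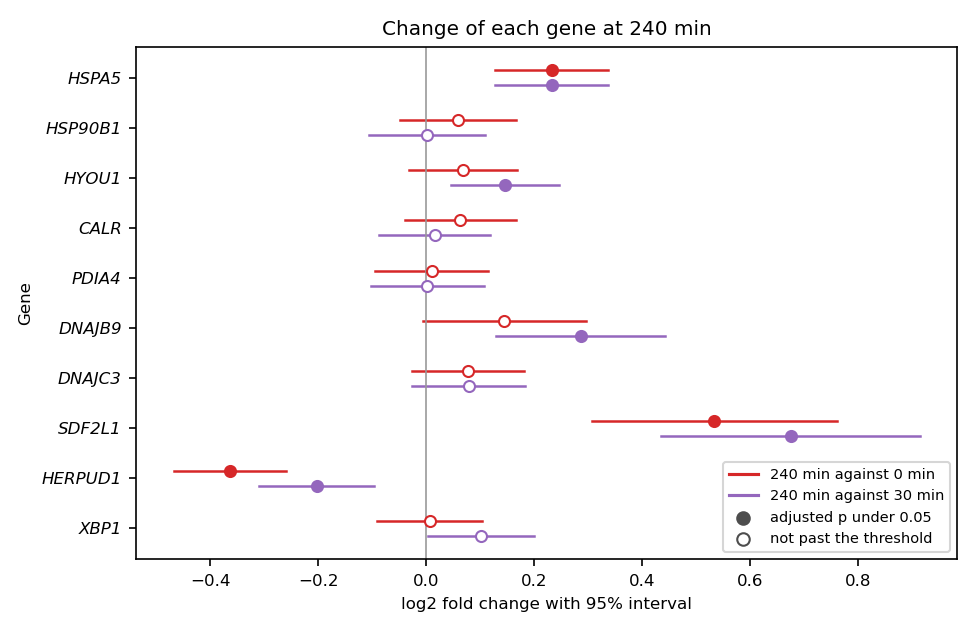
Log2 fold change of each gene (horizontal axis) for 240 min against 0 min in red and against 30 min in purple, by gene (vertical axis). Lines are 95% intervals of the edgeR fit, and filled points have an adjusted p under 0.05. Against 0 min 3 points are filled and against 30 min 5, of which that of HERPUD1 alone is negative.

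From 30 to 240 min, 4 of the 10 genes rose, beside 19.8% of all genes, and HERPUD1 fell, beside 18.4% in that direction. This comparison is also the test of whether the change from 0 min differed between those times. SDF2L1 rose by 59.7% (log2 fold change 0.68 ± 0.11 SE, adjusted p = 0.000103, edgeR), HSPA5 1.18-fold (0.23, adjusted p = 0.00103, edgeR), DNAJB9 1.22-fold (0.29, adjusted p = 0.00481, edgeR) and HYOU1 1.11-fold (0.15, adjusted p = 0.0198, edgeR). The value for HERPUD1 was -0.20 (adjusted p = 0.00365, edgeR). The median over the 10 genes was 0.09, beside 0 over all genes tested. The calls of DNAJB9 and HYOU1 were lost when certain libraries were left out, with the direction kept. Without 30 min replicate 1, DNAJB9 had 0.23 (adjusted p = 0.0649, edgeR) and HYOU1 0.16 (0.0517), and without 240 min replicate 2 DNAJB9 had 0.21 (0.0741). HYOU1 had 0.13 without 30 min replicate 2 (adjusted p = 0.0923, edgeR) and 0.13 without 240 min replicate 1 (0.101). Under ERCC scaling SDF2L1 alone passed, at 0.69 (adjusted p = 0.0285, edgeR). The median of all genes moved by 0.0126 there, and HSPA5 had 0.245 (adjusted p = 0.584, edgeR). The spike-in share differed between replicates, at 1.66% and 1.85% at 30 min and 1.65% and 1.91% at 240 min. The cause of the lost calls was not tested.

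Between genes, levels are compared in TPM, which the authors normalized for transcript length and library size. CALR (mean 1937 TPM over the 10 libraries, range 1833 to 2023) and HSP90B1 (mean 1809, range 1685 to 1868) were the most abundant and their ranges overlapped. HSPA5 followed at 716 TPM (651 to 844), then PDIA4 at 473, XBP1 at 384, HYOU1 at 184, HERPUD1 at 106 and DNAJC3 at 78.5, each without overlap with its neighbours. DNAJB9 at 28.8 TPM and SDF2L1 at 24.8 overlapped and ended the order. CALR stood at rank 45 and SDF2L1 at rank 6249 of the 13852 tested genes. Together the 10 transcripts made up 0.55% to 0.603% of all TPM, and CALR and HSP90B1 alone 63.8% to 66.5% of that sum. The sum was highest in the 240 min libraries, at 0.603% and 0.601%, against 0.55% and 0.564% at 0 min. At 5, 10 and 30 min it ranged from 0.558% to 0.581%. The sum was not tested, and neither CALR nor HSP90B1 passed the test at any time.

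**Figure D3:**
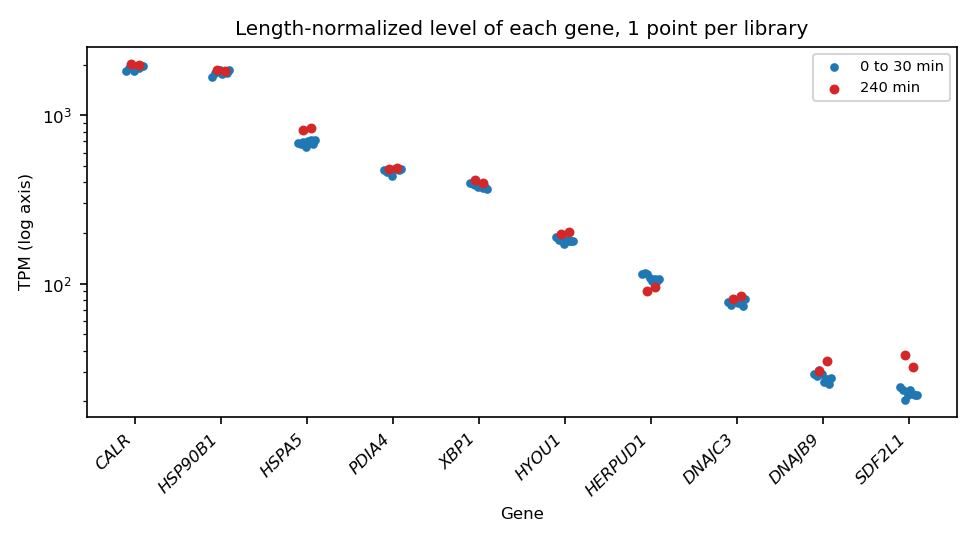
Length-normalized level in TPM (vertical axis, log scale) of the 10 genes (horizontal axis), with 1 point per library and 240 min in red. The order runs from CALR at a mean of 1937 TPM to SDF2L1 at 24.8 TPM, and neighbours overlap only for CALR with HSP90B1 and DNAJB9 with SDF2L1.

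An IR peak lay within 5 kb of the gene body for 2 of the 10 genes, beside 15.7% of all genes tested. The peak at HSP90B1 was at chr12:104323291-104324063 on hg19, scored 1561 and ranked 82 of 1971 peaks. It lay in the annotated promoter region upstream of the gene body (chr12:104324112-104341708, plus strand), and HOMER named MIR3652, a microRNA gene inside HSP90B1, as its nearest gene. The window printed above matched GRCh37 once, at chr12:104323938-104324237, and 126 of its 300 bases were under the peak. The upstream ERSE of HSP90B1 was inside the peak, and the downstream ERSE was outside it. The peak at CALR, chr19:13049201-13049490, spanned the start of the gene (chr19:13049414-13055304, plus strand). It scored 78, beside a median of 79 over all peaks, and covered 272 bases of the window, with 16 of the 19 bases of the ERSE. Neither of these genes passed the test at any time. HSPA5, SDF2L1 and HERPUD1, whose transcripts changed, had no listed peak there. Over all genes tested, 20.6% rose and 20.4% fell from 0 to 240 min, and 15.7% had a peak. No relation between peaks and change is read from so few genes. With 1 ChIP library there is no replicate of these peaks.

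**Figure D4:**
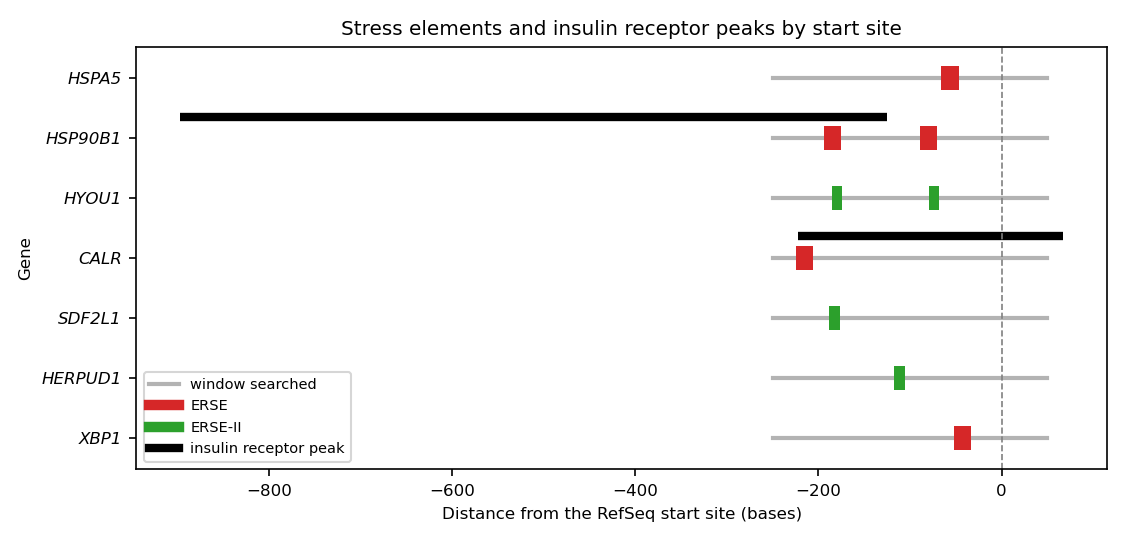
Elements and IR peaks by distance in bases from the RefSeq start site (horizontal axis) for the 7 genes with ERSE (red) or ERSE-II (green) in the window searched (grey). Black bars are IR peaks. They are drawn at HSP90B1, where the bar ends before the downstream element, and at CALR, where it covers the start site and 16 bases of the element.

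The genes outside all lists whose log2 CPM followed that of HSPA5 most closely over the 10 libraries were CPLX2 (Pearson r = 0.992), HN1 (0.987), ZPR1 (0.984), CSRP1 (0.983) and TXNRD1 (0.981). Those closest to the mean of the 10 genes, each scaled to its own spread, were CCT2 (0.976), DYNLL1 (0.971), UGDH (0.97), HN1L (0.97) and PSME3 (0.969). The libraries at 240 min stand apart for many genes, and these values are descriptions of likeness.

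Of the other genes of ER protein handling, each list held changes both ways or downward at 240 min against 0 min. Among 18 sensors and factors of the response, 3 rose and 4 fell, with a median log2 fold change of -0.043. NFYB and NFYA, subunits of the factor that binds CCAAT, had 0.47 and 0.31, and ERN1, the gene of IRE1, had 0.43. NFYC, the third NF-Y subunit, had -0.15, MBTPS1, the protease that first cleaves ATF6, had -0.31, CREB3L3 -0.38 and TMBIM6 -0.17. Of 23 other folding and redox proteins 2 rose (MANF, 0.31, and CRELD2, 0.27, both secreted ER stress proteins) and 4 fell (SDF2, the paralog of SDF2L1, -0.25, P4HB -0.15, ERO1A -0.14, and TXNDC5, which had at most 17 counts in a library), with a median of -0.038. Of 19 tested genes of ER-associated degradation, the process HERPUD1 serves, 3 rose and 8 fell, with a median of -0.106. SYVN1, the ubiquitin ligase HRD1 that HERPUD1 joins, had -0.50, HERPUD2 -0.44, ERLEC1 -0.38 and EDEM3 -0.29, whereas the conjugating enzymes UBE2G2 and UBE2J1 had 0.44 and 0.23 and DERL2 0.25.

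Among 23 genes of translocation and N-glycosylation 2 rose (SPCS3 and SSR3, both 0.23) and 4 fell (DAD1 -0.22, SSR4 -0.28, DDOST -0.15 and RPN2 -0.13), with a median of 0.03. Of 13 genes of ER to Golgi transport 0 rose and 3 fell (SEC31A -0.18, LMAN1 -0.17 and SEC24D -0.19), with a median of -0.054. Of 11 tested targets of PERK and ATF4 4 rose and 1 fell, with a median of 0.092. ATF3 had 0.97, DDIT4 0.91, TRIB3 0.64 and ATF5 0.34, and SESN2 -0.51. Of 14 cytosolic and mitochondrial chaperones 0 rose and 6 fell, with a median of -0.161. HSPH1 had -0.50, HSPB1 -0.47, HSP90AA1 -0.26 and HSPA1A -0.68, the last uncertain because HSPA1B is nearly identical. These shares can be read beside the 20.6% and 20.4% above.

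**Figure D5:**
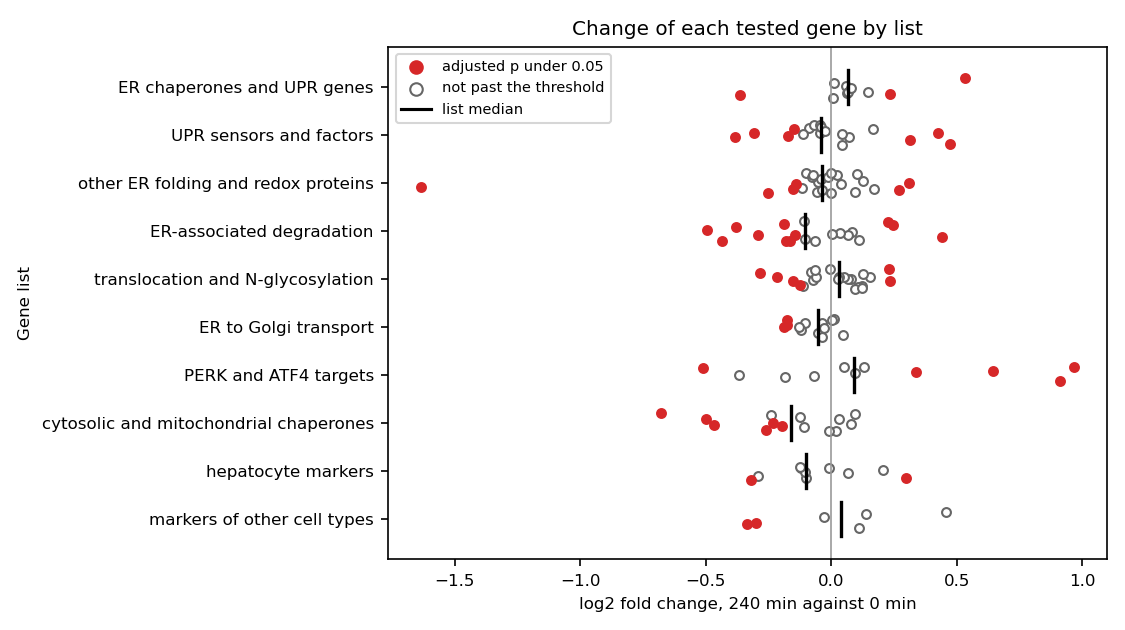
Log2 fold change at 240 min against 0 min (horizontal axis) of every tested gene of each list (vertical axis), with a black line at the list median and genes with an adjusted p under 0.05 in red. The medians run from -0.161 for cytosolic and mitochondrial chaperones to 0.092 for PERK and ATF4 targets, and that of the ER chaperones and unfolded protein response genes is 0.065.

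At 240 min against 30 min 19.8% of all genes tested rose and 18.4% fell, and the counts below can be read beside these shares. Among 18 sensors and factors 3 rose and 3 fell (NFYA 0.46, ERN1 0.64, NFYB 0.35 and MBTPS1 -0.31). Among 23 other folding and redox proteins the counts were also 3 and 3 (MANF 0.36, SDF2 -0.35 and ERO1A -0.21). Of 19 tested genes of ER-associated degradation 4 rose and 7 fell (UBE2G2 0.43, HERPUD2 -0.53, EDEM3 -0.42 and ERLEC1 -0.37). Of 23 genes of translocation and N-glycosylation 3 rose and 1 fell (SSR3 0.29, SRPRB 0.24, SPCS3 0.14 and DDOST -0.17). Of 13 genes of ER to Golgi transport 0 rose and 3 fell (SEC31A -0.29, LMAN1 -0.23 and KDELR1 -0.13). Among 11 tested targets of PERK and ATF4 5 rose and 1 fell (ATF3 1.05, DDIT4 0.85, TRIB3 0.84 and SESN2 -0.49). Among 14 cytosolic and mitochondrial chaperones 1 rose and 5 fell (HSPA1A -0.68, HSPB1 -0.45, HSPH1 -0.41 and HSP90AA1 -0.22).

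Libraries held 18347109 to 45005769 counts on genes, and the spike-ins took 1.59% at 0 min against 1.65% and 1.91% at 240 min. Hepatocyte markers were present, with ALB at 14400 to 20100 CPM, and of the 10 markers HNF4A rose (0.30) and APOA2 fell (-0.32) at 240 min. HNF4A also rose from 30 to 240 min (0.36). Of 12 markers of other cell types, 6 passed the filter, 0 rose and 2 fell at 240 min (LYZ -0.34 and ACTA2 -0.30), and ACTA2 also fell from 30 min (-0.47). Their summed level was 5920 to 6490 CPM at 0 min and 4930 to 5220 CPM at 240 min, nearly all of it LYZ. PTPRC, which marks blood cells, was at 0 counts in every library, and CD3E, COL1A2 and DCN at 1 count at most. Their part in the results for the 10 genes was not tested. HepG2 is a cell line, so these sums were not read as shares of other cell types. In bulk libraries fewer cells with a transcript and less of it per cell cannot be told apart.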

How the data were processed

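RNA-seq was analysed in 10 HepG2 libraries and IR ChIP-seq in 1. For RNA-seq the authors trimmed reads with Trim Galore 0.6.4, aligned them to hg19 with STAR 2.6.1d and deposited raw counts per gene, made with featureCounts 1.6.4 by strand. The authors also deposited StringTie abundances, used here as TPM and, for gene positions, as given. For ChIP-seq the authors aligned with BWA 0.7.17-r1188, called peaks with MACS2 2.2.7.1 and deposited a peak score for each, annotated by HOMER. The tools and builds are those of the submitters' processing notes.

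The 92 spike-in rows, with 1.59% to 2.36% of counts, stayed out of library sizes. Counts were tested with edgeR 4.0.16 (TMM, filterByExpr, quasi-likelihood test, 1 model of 10 libraries, Benjamini-Hochberg adjusted p under 0.05) in R 4.3.3. The size of each log2 fold change over the square root of its F gave the standard error, and intervals used the degrees of freedom of the fit.

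The 10 genes and all lists were chosen with earlier results of these data known. Named genes were the 10, up to 4 per direction and list with the smallest adjusted p at 240 min against 0 min, up to 4 per list in other comparisons, and the 5 most alike by Pearson r to HSPA5 and to the mean of the 10. A gene had a peak when 1 base overlapped its body extended by 5 kb. Alternatives were DESeq2 1.42.0, the likelihood ratio test, no filter, at least 10 counts in every library, RLE, upper-quartile and ERCC scaling, only the times compared, a replicate block, limma 3.58.1 on log2(TPM + 1), log2(TPM + 0.1) and genes averaging 1 TPM or more, and each library left out. Promoter windows are RefSeq's on GRCh38.p14, and all 10 genes were matched by symbol, with 12 windows. Each window matched GRCh37 exactly once. The input library of the ChIP was not analysed here.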

Additional observations from a re-analysis of the deposited data

Results flagged for a closer look

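The change from 0 min differed between 30 and 240 min for 5 of the 10 genes, by the edgeR quasi-likelihood test of 240 min against 30 min described above. Of these 4 were higher at 240 min, beside 19.8% of all genes tested, and 1 was lower, beside 18.4%. The difference on the log2 scale was 0.68 for SDF2L1, 0.29 for DNAJB9, 0.23 for HSPA5, 0.15 for HYOU1 and -0.20 for HERPUD1. With 2 replicates per time, no library could be examined as an outlier within its group.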

How the results depend on the processing

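Of 1320 values of a gene in a comparison under an alternative, 1210 kept direction and side of the threshold, 93 changed sign without passing either way, 13 lost a call, 4 gained one and 0 reversed. ERCC scaling took the count of genes changed from 3 to 0 at 240 min against 0 min and from 5 to 1 at 240 min against 30 min. It took the calls over all genes from 5676 to 1059 at 240 min against 0 min and from 5297 to 917 against 30 min. With each library left out in turn, the log2 value at 240 min against 0 min was 0.21 to 0.25 for HSPA5. It was 0.38 to 0.65 for SDF2L1 and -0.39 to -0.34 for HERPUD1. Against 30 min the values were 0.21 to 0.25 for HSPA5, 0.52 to 0.79 for SDF2L1 and 0.21 to 0.37 for DNAJB9. They were 0.13 to 0.16 for HYOU1 and -0.23 to -0.18 for HERPUD1. The 4 gained calls were XBP1 from 30 to 240 min, with upper-quartile normalization (0.13) and the 3 limma fits (0.12 in each). HYOU1 from 30 to 240 min lost its call with only the times compared (0.14, adjusted p = 0.0714, edgeR). The cause was not tested. With a replicate block the counts of genes changed were 3 and 5, beside 5845 and 5477 of all 13852 genes tested. Deviations of same-numbered replicates correlated at -0.115 to 0.133, so the numbers were not taken to pair the samples. The count of genes with an IR peak was 1 of 10 with scores above the median (HSP90B1) and 1 by HOMER's nearest gene (CALR), against 2. The share of 15.7% over all genes tested holds only for any peak within 5 kb. No share over all genes is given for the other rules, so these counts are not read further. Depth limits SDF2L1 most, at 156 to 365 counts. The 2 replicates per time, the unsettled insulin dose and the single ChIP library limit every comparison.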

Other observations

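The element letters were also found in the windows of 37 genes outside the 10, of which 23 were tested. At 240 min against 0 min 6 of these rose, beside 20.6% of all genes tested, and 6 fell, beside 20.4%, with a median log2 fold change of -0.002. Nothing is read from these counts about the elements. The genes named here were chosen after their values were seen. The risers included SERP1, a protein of the translocon (135 to 167 CPM, log2 fold change 0.32, adjusted p = 3.41e-05, edgeR), and FICD, an enzyme that modifies BiP (1.54 to 3.20 CPM, 1.04, adjusted p = 0.000882, edgeR). The fallers included NAV2 (58.8 to 44.9 CPM, -0.39, adjusted p = 0.000106, edgeR) and ALG12, a mannosyltransferase of N-glycan synthesis in the ER (-0.21, adjusted p = 0.0436, edgeR). CANX (0.04) and PDIA6 (0.00), which also hold ERSE, did not pass. Binding of the factors to the elements was not measured here.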
